A study of Mus musculus with 6 samples.

Results

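The genes of glycolysis and pyruvate metabolism were examined in the hypothalamic arcuate nucleus (ARC) of male mice on 2 diets. They were 34 listed mouse genes for neuronal glucose transport, the glycolytic enzymes, the lactate dehydrogenases, the mitochondrial pyruvate carrier, and the pyruvate dehydrogenase complex with its kinases and a phosphatase. The symbols were matched to the Ensembl identifiers of the deposited table, which has 22322 identifiers. All 34 were found, on 35 identifiers, because a second identifier (ENSMUSG00000114515) carries the symbol *Aldoa*. That second row had 9, 5 and 4 counts in the NCD samples and 2, 1 and 0 in the HFD samples, and *Aldoa* below is ENSMUSG00000030695.

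Glycolysis splits glucose into pyruvate, and neurons and glia both draw on it. Pyruvate is then either reduced to lactate by lactate dehydrogenase or carried into mitochondria, where the pyruvate dehydrogenase complex turns it into acetyl-CoA for the citric acid cycle. In the brain, astrocytes are known for high glycolytic activity and lactate release, and neurons for oxidative use of pyruvate, while the ARC holds neurons that sense circulating nutrients.

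The samples came from male mice. The study's methods name wild-type C57BL/6J mice, and Kiss1-Cre mice crossed with R26R-EYFP reporters, in which Cre acts in *Kiss1* cells, to show where the *Kiss1* neurons lie, but the sources used here do not say which of these were dissected for sequencing. From 4 weeks of age they ate, for 16 weeks, either normal chow with 16.5% fat (NCD) or food with 60% fat (HFD). The ARC was dissected out of cryosections with a laser, so each sample held RNA of all cell types in the cut area. The polyadenylated RNA was sequenced in 3 samples a diet, named NCD1, NCD2, NCD3, HFD1, HFD2 and HFD3. Neither the labels nor the study's methods used here say whether a sample was 1 mouse or a pool, and p-values below measure only the spread between these samples, which may be technical.

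Total counts were 15925648 in NCD1, 9937632 in NCD2, 6882449 in NCD3, 8024664 in HFD1, 10479778 in HFD2 and 5171381 in HFD3. An amount of 3 counts, taken as the detection floor, equals 0.188 CPM (read counts scaled to the library total) in NCD1 and 0.58 CPM in HFD3, and this floor covers counting error only. The largest and the smallest library stood apart from the others. Of the 14188 genes that passed the filter on low counts, 25.1% had their lowest and 26.7% their highest CPM in NCD1, and 24.9% had their lowest and 24.99% their highest in HFD3. In each of the other 4 samples these shares lay between 8.23% and 17.4%.

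ARC identity was checked with 10 marker genes, of which 9 had counts in every sample. *Cartpt*, which encodes an appetite-suppressing peptide precursor, averaged 749 FPKM (fragments scaled to transcript length and mapped reads), and *Pomc*, the precursor of melanocortins, averaged 667 FPKM. *Agrp* averaged 72.5 FPKM and *Npy* 380.0 FPKM, both made by the hunger-promoting neurons of the ARC. The exception was *Kiss1*, whose neurons the dissection aimed at. It had 0, 27 and 32 counts in NCD1, NCD2 and NCD3 and 0, 21 and 42 in HFD1, HFD2 and HFD3, so that the largest library and 1 HFD sample held none. *Gm28040*, annotated across *Kiss1* on the same strand, had 70, 15 and 25 counts in NCD and 99, 39 and 37 in HFD on its main identifier (ENSMUSG00000115958), with its highest counts in the 2 samples where *Kiss1* was at 0. How the counting divided reads between these genes, and whether the cut areas matched, was not tested.

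Sequence before the start of transcription is shown because *Hk2*, *Gapdh* and *Ldha* had the 3 largest log2 fold changes in favour of HFD among the 34 genes. Each sequence is the 250 bases before a RefSeq start in GRCm38.p6, written 5′ to 3′ on the strand of the gene. Capitals mark ACGTG on either strand, the core of the hypoxia response element, which also lies within the E-box CACGTG. The windows are chr6:82774455-82774704 on the minus strand for *Hk2*, chr6:125165774-125166023 on the minus strand for *Gapdh* and chr7:46845554-46845803 on the plus strand for *Ldha*, and no annotated UTR overlaps them.
Hk2: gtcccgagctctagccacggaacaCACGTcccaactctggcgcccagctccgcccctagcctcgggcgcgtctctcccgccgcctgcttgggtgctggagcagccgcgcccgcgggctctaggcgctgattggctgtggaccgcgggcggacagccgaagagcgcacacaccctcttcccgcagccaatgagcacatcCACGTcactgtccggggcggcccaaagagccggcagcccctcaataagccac
Gapdh: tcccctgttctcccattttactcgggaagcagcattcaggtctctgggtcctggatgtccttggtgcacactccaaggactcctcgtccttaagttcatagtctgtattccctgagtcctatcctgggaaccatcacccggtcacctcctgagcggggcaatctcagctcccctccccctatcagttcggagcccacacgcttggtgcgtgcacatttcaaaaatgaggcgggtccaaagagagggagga
Ldha: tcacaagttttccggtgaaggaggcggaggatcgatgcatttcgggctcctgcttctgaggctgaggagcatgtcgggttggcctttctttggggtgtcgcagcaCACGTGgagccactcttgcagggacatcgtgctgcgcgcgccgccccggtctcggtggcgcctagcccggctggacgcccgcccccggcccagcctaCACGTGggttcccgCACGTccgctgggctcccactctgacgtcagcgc

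The *Hk2* window held 2 stretches with the motif and the *Ldha* window 3, while the *Gapdh* window held 0. *Hk1* (2 starts), *Ldhb* (1 start) and a second *Ldha* start had 0. RefSeq promoters were matched for 30 of the 34 genes, and 12 of these 30 (40.0%) had the motif before at least 1 start. The same share by gene was not counted for all mouse genes, so the 40.0% has no background. Counted by start, the motif was present at 16 of 46 starts of these genes (34.8%) and at 5444 of all 32851 mouse starts (16.6%). The starts compared were not matched in base composition or transcript level, and the difference was not tested. It is a description of letters and not of binding. *Slc2a4*, *Pdp1*, *Slc16a7* and *Slc2a3* were not matched.

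The ARC samples contained these transcripts at very different levels. By mean FPKM, which is scaled to transcript length and so allows genes to be compared, *Aldoa* (aldolase A, which cleaves fructose bisphosphate) came first at 1207 FPKM and *Slc2a4* (the insulin-responsive transporter GLUT4) last at 1.03 FPKM. Of the 34 genes, 14 averaged over 100 FPKM, and *Aldoa* and *Gapdh* ranked 33rd and 42nd in the whole table.

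The enzymes of the lower part of glycolysis had the highest levels as a group, between 161 and 1086 FPKM. *Gapdh*, the dehydrogenase that makes the first NADH of the pathway, averaged 1086 FPKM, *Pkm* (pyruvate kinase M) 581 FPKM and *Eno1* (enolase 1) 554 FPKM. *Ldhb*, the lactate dehydrogenase subunit that favours pyruvate formation, averaged 471 FPKM. The neighbours in this order were not separated: *Aldoa* ran from 947 to 1413 FPKM over the 6 samples and *Gapdh* from 798 to 1226 FPKM, and *Pkm* (354 to 753 FPKM) covered the range of *Eno1* (354 to 666 FPKM). *Tpi1* (triose phosphate isomerase, 391 FPKM), *Pgam1* (phosphoglycerate mutase, 315 FPKM), *Gpi1* (glucose phosphate isomerase, 199 FPKM) and *Pgk1* (phosphoglycerate kinase, 165 FPKM) followed.

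Both subunits of the mitochondrial pyruvate carrier were abundant, with *Mpc1* at 239 FPKM and *Mpc2* at 153 FPKM. Of the pyruvate dehydrogenase complex, the E1 subunit gene *Pdhb* averaged 122 FPKM and its partner *Pdha1* 60.1 FPKM. The E3 gene *Dld* averaged 44.9 FPKM, the E2 gene *Dlat* 26.3 FPKM and *Pdhx*, which anchors E3, 17.4 FPKM. Most regulators had low levels. The *Pfkfb* genes, whose products set the level of fructose 2,6-bisphosphate, lay between 4.08 and 5.76 FPKM, and *Pdk4*, a kinase that switches off pyruvate dehydrogenase, averaged 2.22 FPKM. *Pdk2*, another such kinase (32.1 FPKM), and the phosphatase gene *Pdp1* (27.3 FPKM) were above *Dlat* and *Pdhx* by their means.

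**Figure D1:**
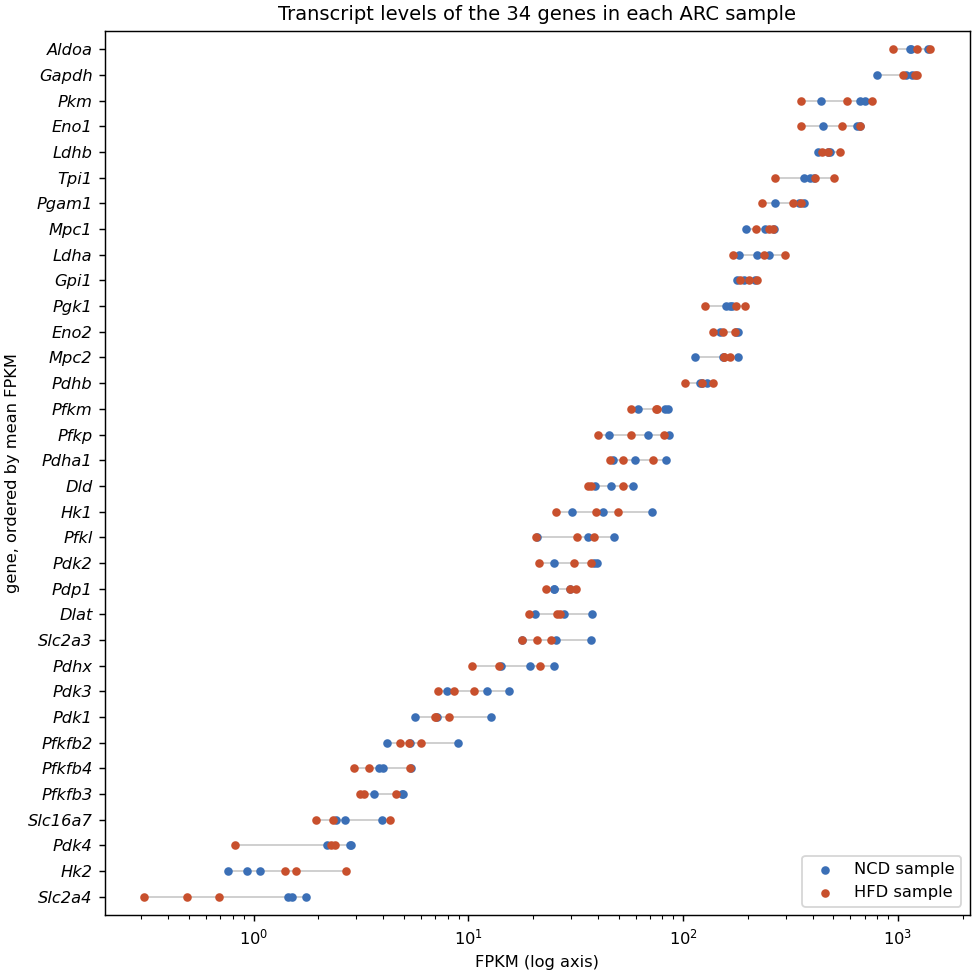
Each row is 1 of the 34 genes, ordered by mean FPKM, and each point is 1 sample (3 NCD in blue, 3 HFD in red) on a log axis of FPKM; grey lines join the lowest and highest sample. *Aldoa* is at the top with a mean of 1207 and *Slc2a4* at the bottom with 1.03, and the colours are fully apart only for *Hk2* and *Slc2a4*.

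The comparison of HFD with NCD asks which of these genes respond in the ARC to a diet that makes mice obese. No gene of the pathway passed the test after adjustment. Before adjustment, *Hk2* (hexokinase 2) was higher in HFD, by 2.01-fold, and *Slc2a4* was lower, at 0.364 times its NCD level, and these were the only 2 genes whose diets did not overlap. The glycolytic enzymes with the highest levels, the lactate dehydrogenases and the pyruvate dehydrogenase subunits all had 95% intervals that held 0.

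In the quasi-likelihood test of edgeR, with p-values adjusted by Benjamini-Hochberg over 14188 genes, 0 of the 34 genes had an adjusted p under 0.05, against 8 of all genes (0.0564%), and DESeq2 called 0 of the 34 as well. Before adjustment 2 of 34 genes (5.88%) had p under 0.05, against 326 of all genes (2.30%). All 3 HFD samples lay on one side of all 3 NCD samples in 2 of 34 genes (5.88%), against 918 of all genes (6.47%), so the count of genes without overlap was no higher than the background. The log2 fold change was above 0 in 9 of 34 genes (26.5%), against 7160 of all genes (50.5%). Its median was -0.14 over the 34 genes and 0.003 over all genes tested. The direction of the median of the 34 genes turned when HFD3 was left out, as shown further on. In bulk tissue, fewer cells of a type and less RNA per cell cannot be told apart.

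*Hk2* (ENSMUSG00000000628, chr6:82725025-82774454 in GRCm38, minus strand) encodes the inducible hexokinase that phosphorylates glucose at the mitochondrial surface. It had 94, 51 and 29 counts in NCD1 to NCD3 and 70, 81 and 77 counts in HFD1 to HFD3. In CPM these were 5.66, 5.19 and 4.36 in NCD and 8.70, 7.98 and 14.5 in HFD. Every HFD sample was above every NCD sample, and HFD3 was the highest by far. The means were 5.07 ± 0.66 CPM for NCD and 10.4 ± 3.57 for HFD (SD, n = 3 each). The log2 fold change was 1.01 (SE 0.33, 95% interval 0.29 to 1.72), with p = 0.0093 before adjustment and an adjusted p = 0.999 by edgeR, and p = 0.1 in the two-sided exact permutation test, the smallest that 3 against 3 samples allow. Without HFD3 the log2 fold change of *Hk2* was 0.71, and its p was no longer under 0.05 before adjustment.

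*Slc2a4* (ENSMUSG00000018566, chr11:69942539-69948188, minus strand) encodes GLUT4, which insulin brings to the surface of muscle and fat cells and which some neurons also carry. It had 53, 29 and 26 counts in the NCD samples and 12, 13 and 4 in the HFD samples, so that HFD3 lay just over the floor of 3 counts. In CPM the values were 3.19, 2.95 and 3.91 in NCD and 1.49, 1.28 and 0.753 in HFD. All HFD samples were below all NCD samples, with a gap wider than the range within HFD. The means were 3.35 ± 0.50 and 1.18 ± 0.38 CPM (SD, n = 3 each). The log2 fold change was -1.46 (SE 0.47, 95% interval -2.47 to -0.44), with edgeR p = 0.0082 and an adjusted p = 0.999, and exact permutation p = 0.1. Leaving out any 1 sample kept its edgeR p under 0.05 before adjustment, with log2 fold changes from -1.65 to -1.26. On log2(FPKM + 1), a scale that understates changes of low genes, its log2 fold change was -0.78, and with the replicate number and the log2 total count both in the fit neither *Slc2a4* nor *Hk2* had p under 0.05 before adjustment.

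Markers of other cell types were examined beside these 2 genes, and none passed the test after adjustment. All 8 mural cell markers had a log2 fold change below 0 (median -0.16), though 3 of the 8 were above 0 without NCD1, without NCD2, without HFD3 or with a covariate for the log2 total count. Among them *Acta2* (smooth muscle actin) was 18.9 ± 3.62 CPM in NCD and 10.7 ± 2.71 CPM in HFD (log2 fold change -0.83) and *Tagln* (transgelin) 7.54 ± 1.63 and 3.67 ± 1.51 CPM (-1.05), each without overlap and with p under 0.05 before adjustment. By contrast the log2 fold changes of *Rgs5* (-0.002), *Pdgfrb* (-0.007) and *Vtn* (-0.07) were near 0. Those of *Myh11* (-0.56), *Kcnj8* (-0.16) and *Abcc9* (-0.16) were lower, with overlap of the diets. The summed mural level was 305, 277 and 210 CPM in NCD and 242, 259 and 227 CPM in HFD, which overlap, and its most abundant gene was *Vtn* (39.6 FPKM). The microglia list summed to 582, 587 and 469 CPM in NCD and 658, 624 and 678 CPM in HFD, which do not overlap. Its most abundant gene *Ctss* (cathepsin S, 108 FPKM) had a log2 fold change of 0.50 and the complement gene *C1qb* one of 0.44, both with p under 0.05 before adjustment. In the microglia list 6 markers had a log2 fold change above 0 and 4 below 0. These counts became 10 and 0 without NCD1 or with a covariate for the log2 total count. Without HFD3 they were 9 and 1, and without NCD3 they were 5 and 5. No marker of either list was at 0 counts, and the part of these cells in the values of *Hk2* and *Slc2a4* was not tested.

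**Figure D2:**
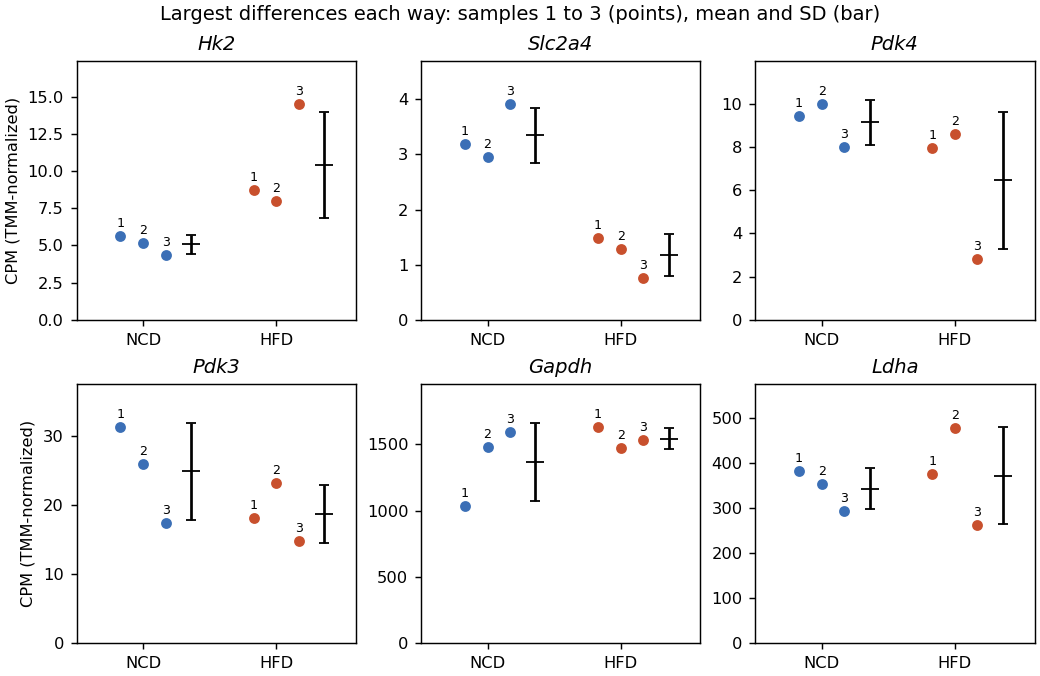
Each panel shows 1 gene in CPM on an axis that starts at 0, with samples 1 to 3 of NCD (blue) and HFD (red) as numbered points and the mean with SD as a black bar. *Hk2* and *Slc2a4* are the panels without overlap, while in *Pdk4* only HFD3 (2.82 CPM) lies apart.

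The other glucose and monocarboxylate transporters of the list were lower in HFD by their means, without passing the test. *Slc2a3*, the high-affinity neuronal transporter GLUT3, was 128, 93.6 and 67.3 CPM in NCD and 79.0, 90.6 and 60.4 CPM in HFD. Its log2 fold change was -0.33 (95% interval -0.88 to 0.22), and the diets overlapped. *Slc16a7*, the transporter MCT2 by which neurons take up lactate and pyruvate, was 11.8 ± 2.69 CPM in NCD and 9.32 ± 0.86 CPM in HFD (mean ± SD, n = 3 each), a log2 fold change of -0.33 with a 95% interval of -0.93 to 0.27.

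Hexokinase 1 is the constitutive brain enzyme and carried most of the hexokinase transcripts. *Hk1* was 253, 168 and 122 CPM in NCD and 155, 201 and 96.9 CPM in HFD, with a log2 fold change of -0.26 (95% interval -0.92 to 0.40). *Hk2* accounted for 1.47%, 2.16% and 2.45% of the FPKM of both genes in NCD and for 3.87%, 2.73% and 9.57% in HFD. The share was thus higher in every HFD sample, and most of the gap came from HFD3, where *Hk1* was lowest and *Hk2* highest. Mean shares were 2.03% ± 0.50 and 5.39% ± 3.66 (SD, n = 3 each; exact permutation p = 0.1, and 0.65 when adjusted over the 13 family shares compared).

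The phosphofructokinases, which commit sugar to glycolysis, were all present. *Pfkm*, the muscle form, was 225, 243 and 179 CPM in NCD and 210, 222 and 155 CPM in HFD. *Pfkp*, the platelet form, was 264, 226 and 156 CPM in NCD and 173, 269 and 129 CPM in HFD. *Pfkl*, the liver form, was 159, 136 and 80.5 CPM in NCD and 119, 148 and 75.1 CPM in HFD. The diets overlapped in each of them, and the lowest sample was HFD3 in all 3. By FPKM, *Pfkm* exceeded *Pfkp* in 4 of 6 samples, so these 2 were not ordered, while *Pfkl* was below both in every sample. The mean shares were 43.8% and 44.2% for *Pfkm*, 37.1% and 36.9% for *Pfkp* and 19.1% and 18.9% for *Pfkl* in NCD and HFD (exact permutation p from 0.7 to 1 before adjustment).

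The genes for the bifunctional enzymes that make and break the activator of phosphofructokinase followed another order of samples. *Pfkfb2* was 27.0, 16.7 and 13.7 CPM in NCD and 17.4, 16.5 and 19.8 CPM in HFD. *Pfkfb3* was 21.5, 16.3 and 21.7 CPM in NCD and 14.8, 16.0 and 18.3 CPM in HFD, and *Pfkfb4* 17.9, 13.2 and 13.4 CPM in NCD and 10.07, 12.03 and 18.06 CPM in HFD. HFD3 was the lowest sample in none of these and the highest of all for *Pfkfb4*. Their log2 fold changes ran from -0.28 to -0.11, and their intervals all held 0. *Pfkfb2* made up 40.0% of the family's FPKM in NCD and 42.0% in HFD, *Pfkfb3* 30.5% and 28.3%, and *Pfkfb4* 29.5% and 29.8%.

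*Aldoa* was 1630, 2088 and 1755 CPM in NCD and 1830, 2179 and 1382 CPM in HFD, a log2 fold change of -0.02 (95% interval -0.55 to 0.51). *Gapdh* was 1034, 1477 and 1592 CPM in NCD and 1629, 1473 and 1530 CPM in HFD, a log2 fold change of 0.17 (95% interval -0.34 to 0.69). *Gapdh* was level in HFD and low in 1 NCD sample, NCD1. Without NCD1 its log2 fold change was -0.003. *Pkm* was 1440, 1487 and 1032 CPM in NCD and 1282, 1698 and 797 CPM in HFD, so that HFD held both the highest and the lowest sample. *Tpi1* (0.04), *Pgk1* (0.01), *Gpi1* (-0.03) and *Pgam1* (-0.09) had log2 fold changes near 0, each with a 95% interval inside 2-fold.

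Enolase and lactate dehydrogenase each have a form linked to neurons or to oxidative tissue, so the make-up of the pairs was compared. *Eno1*, the general form, was 1239, 1358 and 940.0 CPM in NCD and 1102, 1382 and 698 CPM in HFD, and *Eno2*, the neuronal form, 408, 460 and 391 CPM in NCD and 401, 458 and 339 CPM in HFD. *Eno1* gave 77.4% ± 2.03 of the pair's FPKM in NCD and 76.5% ± 3.87 in HFD (SD, n = 3 each; exact permutation p = 0.8). *Ldha*, the form that favours lactate, was 382, 353 and 293 CPM in NCD and 376, 477 and 262 CPM in HFD, and *Ldhb* was 520, 630 and 524 CPM in NCD and 574, 714 and 434 CPM in HFD. *Ldha* gave 32.2% ± 4.80 of the pair in NCD and 32.3% ± 3.94 in HFD (SD, n = 3 each; exact permutation p = 1). The log2 fold change was 0.12 (95% interval -0.42 to 0.66) for *Ldha* and 0.04 (-0.47 to 0.56) for *Ldhb*, and without HFD2 these 2 were below 0 (median -0.13). The balance of the 2 forms therefore differed by far less than its spread between samples.

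**Figure D3:**
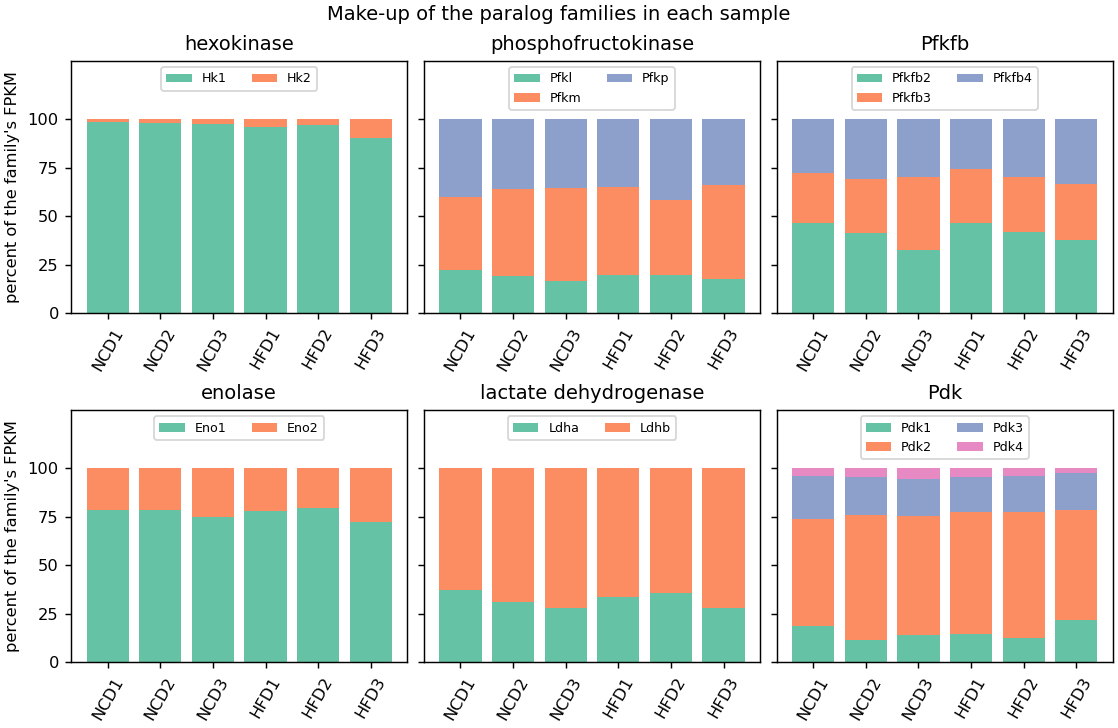
Each panel is a family of paralogs, each bar 1 sample and each colour the percent of the family's summed FPKM that 1 gene held. The bars look alike across the diets except for the *Hk2* part in HFD3 (9.57%).

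At the entry to mitochondria, *Mpc1* was 223 ± 41.6 CPM in NCD and 233 ± 28.5 CPM in HFD and *Mpc2* 154 ± 40.6 and 162 ± 10.6 CPM (SD, n = 3 each). All 5 genes of the pyruvate dehydrogenase complex had a log2 fold change below 0, from -0.03 for *Pdhb* to -0.33 for *Pdhx*, and none had p under 0.05. That direction turned for 4 of the 5 when the log2 total count was a covariate (median 0.02), and for 2 without HFD3. *Pdha1* was 180 ± 44.1 CPM in NCD and 163 ± 44.5 CPM in HFD, *Dlat* 115 ± 30.2 and 96.8 ± 19.5 CPM, and *Dld* 121 ± 19.8 and 107 ± 26.5 CPM. The SD exceeded the difference of the means in each of these 3.

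The pyruvate dehydrogenase kinases switch the complex off, and the phosphatase encoded by *Pdp1* switches it on again. *Pdk2*, the most abundant kinase, was 82.7, 90.0 and 58.4 CPM in NCD and 69.1, 86.0 and 46.7 CPM in HFD. *Pdk1* was 63.3, 37.6 and 30.4 CPM in NCD and 36.2, 37.7 and 40.8 CPM in HFD. Neither separated the diets. *Pdk3* was 31.3, 26.0 and 17.5 CPM in NCD and 18.1, 23.2 and 14.9 CPM in HFD (log2 fold change -0.41, 95% interval -0.99 to 0.17), and *Pdk4*, which fasting and fatty acids induce in many tissues, was 9.45, 9.98 and 7.98 CPM in NCD and 7.95, 8.58 and 2.82 CPM in HFD (-0.48, 95% interval -1.29 to 0.34). For *Pdk4* the difference came mainly from HFD3, and without that sample its log2 fold change was -0.15. *Pdp1* was 96.7 ± 2.88 CPM in NCD and 102 ± 19.7 CPM in HFD (mean ± SD, n = 3 each).

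Within the family, *Pdk2* held 60.3% of the FPKM in NCD and 61.7% in HFD, *Pdk1* 14.6% and 16.1%, and *Pdk4* 4.67% and 3.69%. The share of *Pdk3* was 22.2%, 19.7% and 19.5% in NCD and 17.7%, 18.6% and 19.3% in HFD. These did not overlap, although the nearest samples were within a percentage point (exact permutation p = 0.1, adjusted p = 0.65 over 13 shares). By FPKM, *Pdk2* was above the other kinases and *Pdk4* below them in all 6 samples, and *Pdk1* was above *Pdk3* in 1 of 6.

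Over the 34 genes, the log2 fold change lay within 0.5 of 0 for 32, compared with 90.9% of all genes tested. The SE ranged from 0.20 to 0.47 with a median of 0.25. The 95% interval held 0 for 32 genes. It stayed inside a 2-fold difference either way for 31 genes and inside 1.5-fold for 9.

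**Figure D4:**
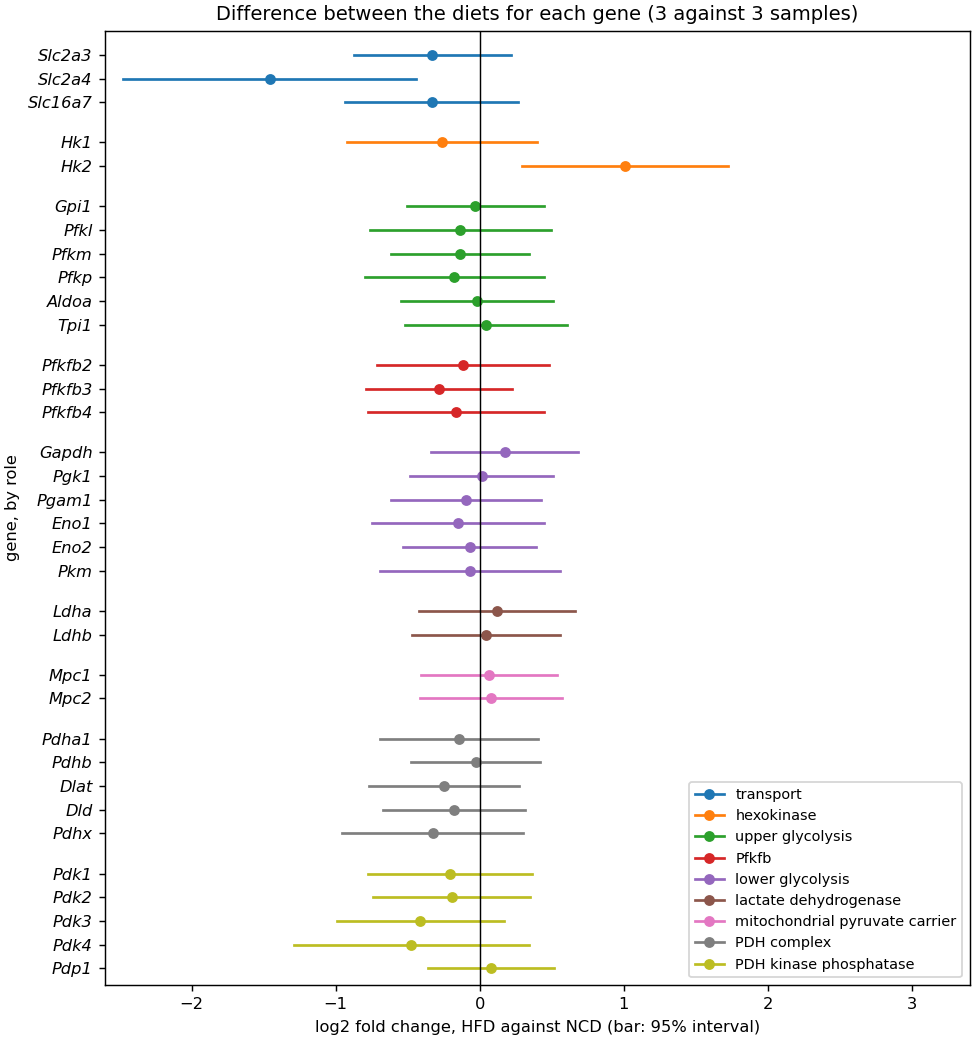
Points are the log2 fold changes of HFD against NCD and bars their 95% intervals from edgeR's quasi-likelihood fit, with 1 gene per row, coloured by role. Only the bars of *Slc2a4* (-2.47 to -0.44) and *Hk2* (0.29 to 1.72) miss 0.

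The samples within a diet did not stand at 1 level for these genes. HFD3, the smallest library, had the lowest CPM of the 6 samples in 25 of 34 genes, against 24.9% of all genes tested. NCD2 and HFD2 had the lowest in 0, against 9.99% and 13.8% of all genes. HFD2 had the highest CPM in 11 genes, against 15.1% of all genes, and NCD1 in 10, against 26.7%. Measured as the median deviation of the 34 genes from their means over the samples, on the log2 scale, the samples stood at 0.19, 0.12 and -0.15 for NCD1 to NCD3 and at 0.01, 0.23 and -0.39 for HFD1 to HFD3. Over all genes tested the same medians lay between -0.01 and 0.03.

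The direction of the whole list turned with HFD3 left out, where 21 of 34 genes were higher in HFD and the median log2 fold change was 0.03. With any other sample left out the median stayed below 0. It ran from -0.24 without HFD2, where 3 genes were higher, to -0.06 without NCD2. When the log2 total count was added to the fit as a covariate, 25 of 34 were higher in HFD (median 0.05). The neuron list had median deviations of -0.24, 0.10 and 0.07 in NCD and -0.06, 0.14 and -0.16 in HFD, and the astrocyte list -0.02, 0.13 and -0.16 in NCD and 0.18, 0.04 and -0.26 in HFD. The ARC markers had -0.48, -0.13 and 0.18 in NCD and 0.04, -0.07 and 0.53 in HFD, so NCD1 and HFD3 also held their lowest and highest values. The oligodendrocyte markers had -0.12, 0.42 and -0.09 in NCD and -0.32, 0.24 and -0.40 in HFD. Reads of the 13 mitochondrial genes made up 3.20%, 4.24% and 6.57% of counts in NCD and 4.16%, 3.51% and 5.77% in HFD. The correlation with the log2 total count over the samples had a median of 0.67 for the 34 genes and 0.03 for all genes. It was above 0.8 in 13 of the 34, against 15.8% of all genes, and below -0.8 in 0, against 15.0%. The part of library size, cell make-up and RNA quality in the spread of the 34 genes was not tested.

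**Figure D5:**
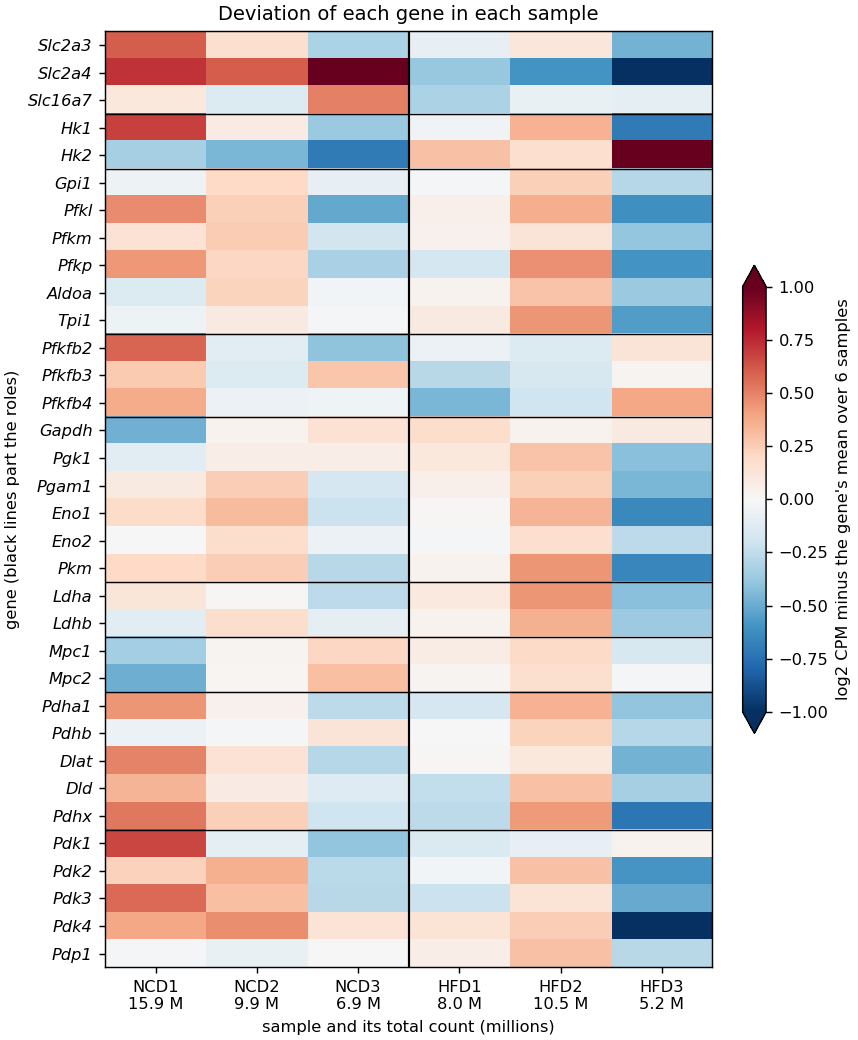
Rows are the 34 genes by role, columns the 6 samples with their total counts, and colour the log2 CPM minus the gene's mean over the samples, from blue (low) to red (high), clipped at 1 either way. The HFD3 column is mostly blue, with 25 genes at their lowest, and *Hk2* and *Slc2a4* stand out as the rows that split at the line between the diets.

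Beyond the 34 genes, 71 further genes of glucose metabolism were listed, of which 68 passed the filter and 3 (*Pklr*, *Pfkfb1* and *Slc2a2*, typical of liver) did not. None had an adjusted p under 0.05 by edgeR. Before adjustment 1 of 68 (1.47%) had p under 0.05, against 2.30% of all genes, and 6 (8.82%) separated the diets, against 6.47% of all genes. The log2 fold change was above 0 in 20 and below 0 in 48, with a median of -0.12. Without HFD3 32 were above 0 and 36 below (median -0.03), and with a covariate for the log2 total count 36 and 32 (median 0.02).

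The gene with p under 0.05 was *Pygl*, the liver form of glycogen phosphorylase, which releases glucose units from glycogen. It was 19.4, 12.7 and 16.1 CPM in NCD and 12.2, 10.9 and 8.47 CPM in HFD, all HFD samples below all NCD samples (log2 fold change -0.61, SE 0.27, adjusted p = 0.999 by edgeR). Of the 13 glycogen genes, 2 had a log2 fold change above 0 and 11 below 0 (median -0.20), which became 7 and 6 without NCD1 and 8 and 5 with a covariate for the log2 total count, and the most abundant was *Pgm1* (phosphoglucomutase, 71.3 FPKM). The list of other glycolysis and pyruvate genes had 7 above 0 and 15 below 0 (median -0.04). Its median was -0.18 without NCD3 and -0.17 without HFD2, and without HFD3 10 were above 0 and 12 below. The most abundant gene of that list was *Aldoc*, the aldolase of the brain, at 728 FPKM. For the pentose phosphate pathway there were 5 and 3 (median 0.05, and 3 and 5 without NCD1 or with that covariate; *Taldo1*, 92.8 FPKM), for the citric acid cycle 5 and 11 (median -0.06, and 11 and 5 without HFD3; *Mdh2*, 343 FPKM) and for the shuttles that carry NADH electrons into mitochondria 1 and 8 (median -0.14, and 4 and 5 without HFD3 or with that covariate; *Mdh1*, 537 FPKM).

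Some member genes share sequence or position with others, and the counting may have split their reads. Annotated genes on the opposite strand with counts of their own overlap *Gapdh* (*Iffo1*), *Pfkm* (*Senp1*), *Pfkp* (*Pitrm1*), *Pdha1* (*Map3k15*), *Pfkfb2* (*Yod1*), *Tpi1* (*Spsb2*) and *Aldoa* (*Fam57b*). On the same strand *Gm29427* overlaps *Pfkfb2* and had 10, 2 and 0 counts in NCD and 4, 0 and 2 in HFD. Whether strand was used in counting is not given in the sources used here. *Eno1b*, a near copy of *Eno1*, had 124, 64 and 46 counts in NCD and 84, 73 and 56 in HFD. *Gapdh*, *Pgk1*, *Ldha*, *Aldoa*, *Pgam1* and *Mpc1* have retrocopies named after them in the annotation, which were not among the 22322 identifiers. The levels of these genes and of *Eno1* are uncertain to that extent.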

How the data were processed

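RNA-seq of microdissected ARC was analysed in 3 NCD and 3 HFD samples. Per the study's methods, the authors cleaned the reads, compared them with a ribosomal database (bowtie2), aligned them to the mouse genome (HISAT2; the submitters' processing notes name mm10) and quantified genes with StringTie and RSEM, with versions not given in the sources used here. The deposited table gives, per gene and sample, a read count, not normalized, and the authors' FPKM, scaled to transcript length and mapped reads. Sample titles marked C and H were assigned to NCD and HFD through the group names in the table. The columns of the authors' own comparison (fold change, p-value and FDR) were not used.

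Symbols and positions came from GENCODE M21 (GRCm38), in which 22267 of 22322 identifiers were found. Counts were filtered with filterByExpr (14188 genes, all 34 members among them), normalized with TMM and compared with edgeR 4.0.16 (glmQLFit and glmQLFTest, R 4.3.3) with diet as the only term and Benjamini-Hochberg adjustment over all genes. The 95% intervals used the degrees of freedom of that fit. Two-sided exact permutation tests were run on log2 CPM (prior count 2) and on shares of FPKM within families, and cannot give p under 0.1. Fits were tested on simulated data. Motifs were searched in RefSeq promoter sequences of GRCm38.p6.

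Values in every sample are given for members with p under 0.05 or without overlap, the 3 largest changes each way, the 5 highest by FPKM and the families of paralogs, and sequences for at most 4 members named first, of which *Slc2a4* had none. Of the other pathway and marker lists, the rule takes genes with p under 0.05, those without overlap and a log2 fold change over 0.5, and the most abundant. *Slc2a3*, *Kiss1* and *Gm28040* were added after their values were seen. Members and lists were chosen with earlier results of these data known. The alternatives were RLE factors, library totals, DESeq2 1.42.0, 2 other filters, limma 3.58.1 on log2(FPKM + 1) and log2(FPKM + 0.1), the replicate number as a block, a covariate for the log2 total count, both together, and each sample left out.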

Additional observations from a re-analysis of the deposited data

How the results depend on the processing

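Over 16 alternatives, all 543 fold changes fitted for the 34 genes stayed inside their 95% intervals, and 0 genes had an adjusted p under 0.05 (lowest 0.604, *Hk2* without NCD3). The 2 genes with p under 0.05 became 1 with a mean of at least 50 counts, a filter that removes *Slc2a4*, and 0 with the replicate block and the log2 total count together. Leaving out 1 sample gave 1 gene (without HFD3, *Slc2a4*) to 4 (without NCD3, adding *Pdk3* and *Slc2a3*), where the share of all genes was 1.94% and 8.13%. The 2 genes without overlap became 1 under the filter of 50 and 2 to 7 with a sample left out, 7 (20.6%) both without NCD3 and without HFD3, where 23.9% and 14.5% of all genes had none. The 9 genes higher in HFD became 25 with the log2 total count, 16 with the replicate block and that count, and 3 (without HFD2) to 21 (without HFD3) with a sample left out. In these the cause was not tested. The difference in share, HFD minus NCD, was 3.36 points for *Hk2*, -1.96 for *Pdk3* and -0.99 for *Pdk4*, and on summed log2(FPKM + 1) it was 7.89, -0.52 and -2.21 points, since the log compresses high genes.

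Same-numbered samples did not deviate together throughout (correlations -0.0116, 0.113 and 0.369), so the numbers were not taken as pairs. With the replicate block *Hk2* had a log2 fold change of 0.96 and *Slc2a4* one of -1.46 (adjusted p = 0.995 by edgeR for both), again 2 genes with p under 0.05 before adjustment (5.88%, against 4.15% of all genes), and no call changed. With 3 samples a group and as few as 4 counts of *Slc2a4* in HFD3, depth limits the low genes most.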

Other observations

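Among the marker lists not described above, the ARC list had 9 genes with a log2 fold change above 0 and 1 (*Pomc*) below 0 (median 0.31). Without NCD1 7 were above 0 and 3 below (median 0.19), without HFD3 5 and 5 (median 0.03), and with a covariate for the log2 total count 6 and 4 (median 0.03). *Cartpt* was 396, 673 and 577 CPM in NCD and 904, 777 and 1078 CPM in HFD, without overlap (log2 fold change 0.75, SE 0.25, adjusted p = 0.999 by edgeR). *Tac2*, which encodes neurokinin B, was 26.9 ± 7.05 CPM in NCD and 40.7 ± 10.7 CPM in HFD (mean ± SD, n = 3 each; log2 fold change 0.60, adjusted p = 0.999 by edgeR). Both had p under 0.05 before adjustment.

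The neuron list (median 0.04, and -0.11 without NCD1, most abundant *Uchl1* at 595 FPKM) had 0 genes with p under 0.05. *Gfap*, an astrocyte filament gene, was 169 ± 74.5 CPM in NCD and 311 ± 105 CPM in HFD (mean ± SD, n = 3 each; log2 fold change 0.88, p under 0.05 before adjustment), while its list had a median of -0.002 (most abundant *Agt* at 298 FPKM). That astrocyte median was 0.12 without NCD2, 0.08 without HFD3 and -0.07 without HFD1. In the microglia list (median 0.23), *C1qa* had a log2 fold change of 0.46 with p just under 0.05 before adjustment, and its diets overlapped. The oligodendrocyte list had a median of -0.21 (*Mbp*, 887 FPKM) and *Opalin* a log2 fold change of -0.88, and the median was -0.02 without NCD2, -0.06 without HFD3 and -0.41 without HFD2. Of the endothelial genes (median 0.10, and -0.01 without HFD3), *Ly6c1* (50.7 FPKM, the most abundant) had a log2 fold change of 0.81 and *Cldn5* one of -0.48, both without overlap. The tanycyte and ependyma list had a median of 0.16 (*Rarres2*, 135 FPKM; *Crym* 0.89), from 0.07 without NCD1 to 0.37 without NCD3. The red blood cell list had a median of -0.50 (-0.14 without NCD2, -0.29 without HFD3, -0.83 without HFD1 and -0.86 without NCD1) and *Hba-a2* at 1018 FPKM, with summed levels of 815, 2459 and 1899 CPM in NCD and 1691, 1119 and 846 CPM in HFD.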
